A study of Mus musculus with 4 samples.

Results

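The 9 genes described here encode parts of the transforming growth factor β (TGF-β) pathway and were chosen by symbol from the 32285 genes of the deposited tables. Earlier results of these data were known when they were chosen. They are the ligands Tgfb1, Tgfb2 and Tgfb3, the latent TGF-β binding proteins Ltbp1 and Ltbp2, the receptors Tgfbr1 and Tgfbr2, the receptor-activated transducer Smad3 and the inhibitory Smad7. Each was measured as unique molecular identifiers (UMIs, 1 per captured transcript) summed over every barcode of a 10x Genomics library from the left ventricle of male wild-type C57BL/6J mice, and is given per 1000000 UMIs of that library (CPM). Young mice were 3 to 5 months old and aged mice 24 to 26 months old. At each age 1 library came from mice under sham conditions and 1 from mice with surgery on the left anterior descending artery, 45 min of ischemia and 24 h of reperfusion (I/R). The labels title the control mice as sham but give their treatment as healthy without alteration, they name the molecule as nuclear RNA while the library source is single cell, and the number of mice behind a library was not given in the sources used here. With 1 library per condition there was no replicate error and no test. The 95% intervals below cover counting error only, and a library, its mice and its condition cannot be told apart.

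TGF-β is secreted in a latent complex, held to the extracellular matrix by latent TGF-β binding proteins, and is released there by integrins, proteases and thrombospondins. The free ligand brings together the type II receptor, Tgfbr2, and the type I receptor, Tgfbr1, which phosphorylates Smad3 for transcription with Smad4, while Smad7 is induced by the pathway and blocks the type I receptor. In the injured heart the pathway is known for restraining inflammation and for turning fibroblasts into matrix-producing myofibroblasts.

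The genes lie on several chromosomes of GRCm38. Tgfb1 lies at chr7:25687002-25705077 on the plus strand, Tgfb2 at chr1:186622792-186705989 on the minus strand and Ltbp2 at chr12:84783212-84876532 on the minus strand. The bases just before the starts of these 3 genes, from RefSeq on GRCm38.p6, are shown because Tgfb2 and Tgfb1 are ligands of the same receptors whose levels after I/R differed, and Ltbp2 spanned the widest range of levels. They are written 5′ to 3′ on the gene's strand, for Tgfb1 at chr7:25686752-25687001, for Tgfb2 at chr1:186705990-186706239 and for Ltbp2 at chr12:84876559-84876741, and capitals mark motif letters found on either strand.
Tgfb1: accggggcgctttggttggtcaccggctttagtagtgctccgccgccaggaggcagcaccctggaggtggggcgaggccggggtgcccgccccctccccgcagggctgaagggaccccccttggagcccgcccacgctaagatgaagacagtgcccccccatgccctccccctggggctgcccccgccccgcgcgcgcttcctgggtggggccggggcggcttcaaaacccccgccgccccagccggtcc
Tgfb2: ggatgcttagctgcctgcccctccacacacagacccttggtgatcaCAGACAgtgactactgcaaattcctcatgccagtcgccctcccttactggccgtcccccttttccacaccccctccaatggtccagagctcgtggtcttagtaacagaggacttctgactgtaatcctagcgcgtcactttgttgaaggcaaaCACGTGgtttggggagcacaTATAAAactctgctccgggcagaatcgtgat
Ltbp2: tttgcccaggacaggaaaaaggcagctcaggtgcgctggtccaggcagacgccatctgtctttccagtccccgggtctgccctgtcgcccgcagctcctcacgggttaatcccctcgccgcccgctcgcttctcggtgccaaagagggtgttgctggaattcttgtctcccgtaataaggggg
In the Tgfb2 window the SMAD half-site CAGACA began 204 bases, the E-box CACGTG 51 bases and the TATA box letters TATAAA 31 bases before the start. Of 32851 windows of 250 bases before mouse gene starts, 17.1% held CAGACA, 6.02% held CACGTG and 12.4% held TATAAA. The TATAAA search was added after the sequence had been seen. The windows of Tgfb1 and Ltbp2 held none of these letters, nor the AP-1 site TGANTCA, the CRE TGACGTCA or the SMAD palindrome GTCTAGAC. None of these motifs overlapped another. For Ltbp2 the start used lay inside the annotated gene, so only the 183 bases of its window outside the gene are shown. The motif search covered its full window of 250 bases.

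The libraries differed in depth and content, which bears on every value below. They held 25836175 to 66767829 UMIs over 91124 to 102883 barcodes, with the fewest UMIs in young sham and the most in aged I/R, and the median barcode carried 244 to 675 UMIs. Between 7.44% and 7.92% of a library's barcodes also occurred in another library. Mitochondrial genes took 9.98% to 15.6% of UMIs and Malat1, a nuclear RNA, 2.22% to 7.34%, highest in young sham. Over the genes that had 100 UMIs or more in the pair compared, the median log2 ratio was -0.44 for young I/R over young sham, 0.09 for aged I/R over aged sham, -0.14 for aged sham over young sham and 0.43 for aged I/R over young I/R. Values relative to these medians are therefore given beside the ratios of CPM where they differ in what they show, and the part of these library properties in the results was not tested.

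After I/R in young mice Tgfb2 and Ltbp2 were at least 1.5-fold higher than in young sham, and Smad7, Tgfb3 and Smad3 at least 1.5-fold lower, with the other genes nearer to 1. Those 2 genes above the threshold stand beside 5.35% of 12465 genes tested that were higher by the same rule, and the 3 below it beside 41.9% that were lower. Relative to the median gene none of the 9 was 1.5-fold lower and 3 were higher, Tgfbr2 being added, against 21.0% and 17.6% of genes. After I/R in aged mice Smad7 was 1.5-fold higher and Ltbp2 1.5-fold lower than in aged sham, against 14.4% and 7.43% of 13722 genes, and both were so relative to the median gene as well (11.2% and 10.2%). In sham ventricles Ltbp2 was higher and Smad7 lower in aged than in young mice, against 6.12% and 16.9% of 12901 genes, again also relative to the median gene (9.88% and 10.8%). Between the I/R libraries only Smad7 of the 9 passed 1.5-fold, higher in aged mice as were 39.3% of 13434 genes, and none was lower, against 3.29%. Relative to the median gene Smad7 was higher and Tgfb2 lower there, against 16.4% and 14.0%. The 4 comparisons share libraries and are not independent of each other.

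**Figure D1:**
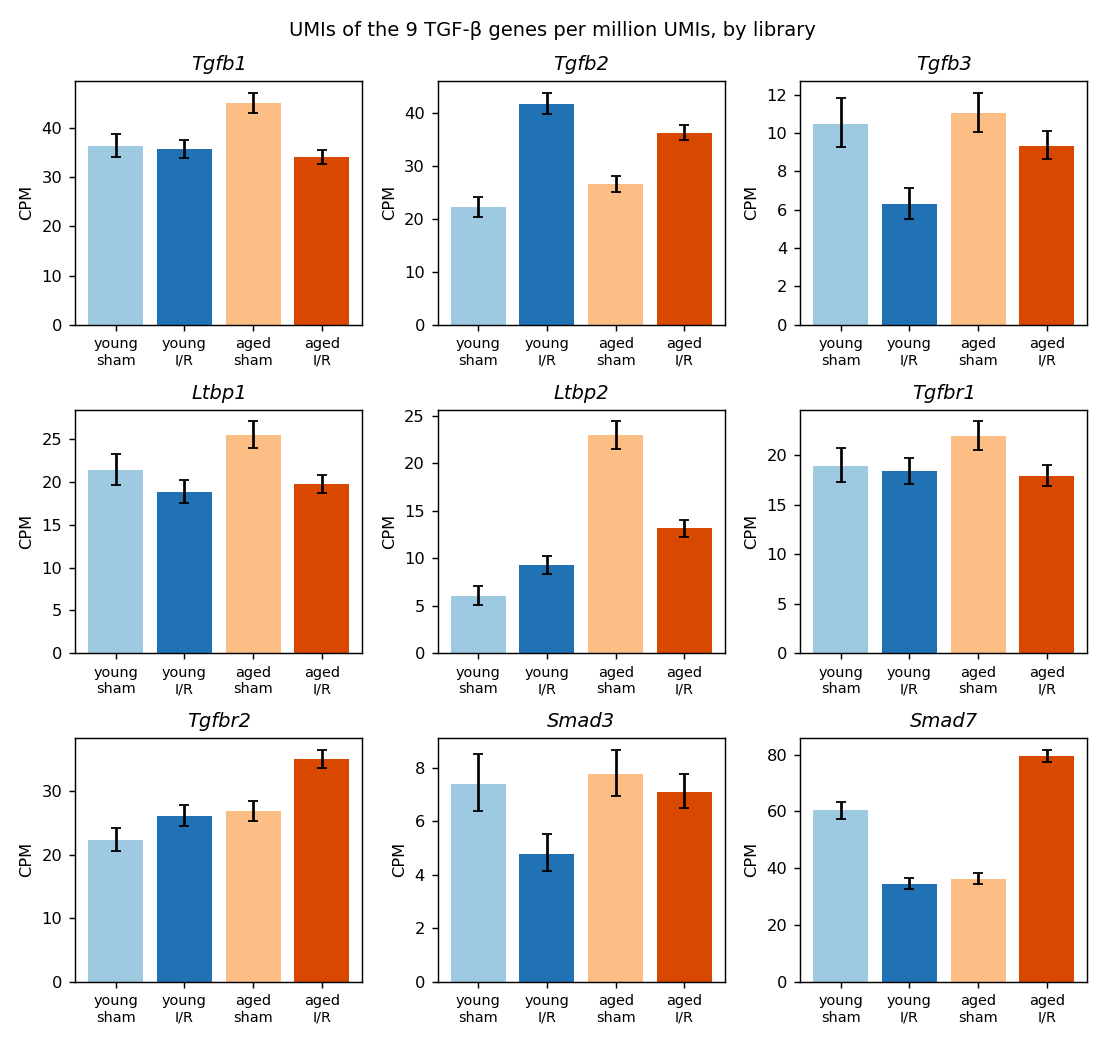
Level of each gene in the 4 libraries in CPM (axes starting at 0), with 1 bar per library and exact Poisson 95% intervals as error bars. Tgfb2 stood highest in young I/R at 41.7 CPM, Ltbp2 in aged sham at 22.9 CPM and Smad7 in aged I/R at 79.6 CPM.

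Of the ligands, Tgfb2 was the one whose level was higher after I/R at both ages. Its level was 22.1 CPM in young sham (572 UMIs), 41.7 CPM in young I/R (1655 UMIs), 26.5 CPM in aged sham (1096 UMIs) and 36.2 CPM in aged I/R (2417 UMIs). Both I/R libraries lay above both sham libraries, and none of the 4 Poisson intervals overlapped its neighbour in that order. The I/R-to-sham log2 ratio was 0.91 in young mice (95% interval 0.78 to 1.05), higher than that of 97.2% of genes tested. In aged mice it was 0.45 (0.35 to 0.55), a 1.37-fold difference that did not reach 1.5-fold. The aged response was smaller than the young one by 0.46 on the log2 scale (interval of the difference -0.64 to -0.29), although across 13018 genes with at least 25 UMIs in every library the median difference was 0.56 in the other direction. Relative to the median gene, Tgfb2 was 1.5-fold lower in aged than in young I/R, with a log2 ratio of -0.63 (-0.72 to -0.54). The gene overlaps Gm29491 and Gm26169 on the opposite strand, and whether counting used strand was not stated, so reads of these genes may not be separable from its own.

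Tgfb1, the ligand most studied in cardiac fibrosis, ranged 1.33-fold in CPM from lowest to highest library. Its level was 36.4 CPM in young sham, 35.6 CPM in young I/R, 45.1 CPM in aged sham and 34.0 CPM in aged I/R. The intervals of young sham and young I/R overlapped, as did those of the I/R libraries, and aged sham stood above all 3. The I/R-to-sham log2 ratio was -0.03 in young mice (-0.15 to 0.09) and -0.41 in aged mice (-0.50 to -0.32). The direction of the young value depended on the scaling, since it was 0.43 with TMM factors and 0.48 with median-of-ratios factors. The aged response minus the young one was -0.38 (-0.52 to -0.23). Relative to the median gene it was -0.93, past 1.5-fold. In sham ventricles the aged level was 1.24-fold the young one, a log2 ratio of 0.31 (0.19 to 0.42).

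Tgfb3 was the ligand with the fewest UMIs. It was measured at 10.5 CPM in young sham (271 UMIs), 6.30 CPM in young I/R (250 UMIs), 11.1 CPM in aged sham (457 UMIs) and 9.35 CPM in aged I/R (624 UMIs). The young I/R library was low against the other 3. Its log2 ratio to young sham was -0.74 (-0.99 to -0.48), and -0.29 relative to the median gene, which is within 1.5-fold. The aged I/R-to-sham log2 ratio was -0.24 (-0.42 to -0.06), and the sham libraries of the 2 ages had overlapping intervals. Tgfb3 overlaps Ttll5, Gm37804 and Gm48008 on the opposite strand.

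Of the binding proteins, Ltbp2, which attaches to fibrillin microfibrils and binds no latent TGF-β, spanned the widest range of the 9 genes, 3.80-fold from lowest to highest library. Its level was 6.04 CPM in young sham (156 UMIs), 9.25 CPM in young I/R (367 UMIs), 22.9 CPM in aged sham (949 UMIs) and 13.2 CPM in aged I/R (878 UMIs). Both aged libraries lay above both young libraries, and no neighbouring intervals overlapped. In sham ventricles the log2 ratio of aged over young was 1.93 (1.68 to 2.18), higher than that of 99.7% of genes tested. I/R went with opposite differences at the 2 ages: the I/R-to-sham log2 ratio was 0.62 in young mice (0.34 to 0.90) and -0.80 in aged mice (-0.94 to -0.67). The young ratio of 1.53-fold lay just inside the 1.5-fold threshold, and its interval reached below it. After I/R the aged level was 1.42-fold the young one, a log2 ratio of 0.51 (0.33 to 0.69). This is close to the median of all genes, at 0.08 relative to it (-0.10 to 0.26). Ltbp2 overlaps D030025P21Rik on the opposite strand.

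The genes whose profile over the 4 libraries was most like that of Ltbp2, measured by the largest difference of mean-centred log2 CPM in any library among 11541 genes with at least 500 UMIs, were Panx1, Frzb and B2m. That difference was 0.21 for Panx1, a membrane channel, 0.32 for Frzb, a secreted Wnt antagonist, and 0.33 for B2m, the light chain of class I histocompatibility molecules. B2m stood at 88.9, 92.3, 267 and 143 CPM in the young sham and I/R and the aged sham and I/R libraries. The likeness rests on 4 libraries.

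Ltbp1, which forms the large latent complex with TGF-β1, followed the order of Tgfb3 and Smad3, with aged sham highest and young I/R lowest. Its level was 21.4 CPM in young sham, 18.9 CPM in young I/R, 25.5 CPM in aged sham and 19.7 CPM in aged I/R, and the last overlapped both young libraries in its interval. The I/R-to-sham log2 ratio was -0.18 in young mice (-0.34 to -0.02) and -0.37 in aged mice (-0.49 to -0.25). The young value changed sign with other scalings, to 0.29 with TMM factors and 0.33 with median-of-ratios factors. Ltbp1 overlaps Gm6276 on the same strand.

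The receptors differed from each other in how far their levels ranged. Tgfbr1, the signalling type I kinase, was at 19.0 CPM in young sham, 18.4 CPM in young I/R, 22.0 CPM in aged sham and 17.9 CPM in aged I/R, the narrowest range of the 9 genes at 1.23-fold. Every library overlapped its neighbour in the order of levels. The aged response of Tgfbr1 minus the young one was -0.25 (-0.46 to -0.04), and -0.80 relative to the median gene. Tgfbr2, the ligand-binding type II kinase, was at 22.4 CPM in young sham (578 UMIs), 26.2 CPM in young I/R (1038 UMIs), 26.9 CPM in aged sham (1112 UMIs) and 35.1 CPM in aged I/R (2344 UMIs). The intervals of young I/R and aged sham overlapped, with young sham below and aged I/R above them. The I/R-to-sham log2 ratio was 0.23 in young mice (0.08 to 0.38) and 0.38 in aged mice (0.28 to 0.49), and the ages differed in this response by 0.16, with an interval that held 0 (-0.02 to 0.34). The direction of that difference turned with other scalings, to -0.40 relative to the median gene, -0.44 with median-of-ratios factors, -0.35 with TMM factors and -0.08 without the abundant genes. Relative to the median gene the young ratio was 0.67 (0.52 to 0.82).

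Smad7, the inhibitory SMAD, had the opposite difference after I/R at the 2 ages. Its level was 60.4 CPM in young sham (1560 UMIs), 34.6 CPM in young I/R (1372 UMIs), 36.3 CPM in aged sham (1503 UMIs) and 79.6 CPM in aged I/R (5315 UMIs). Young sham and aged I/R were high, and young I/R and aged sham were low with overlapping intervals. The I/R-to-sham log2 ratio was -0.80 in young mice (-0.91 to -0.70) and 1.13 in aged mice (1.05 to 1.21). The difference between these responses was 1.94 (1.80 to 2.07), and it was 1.38 relative to the median gene. By the same rule 48.8% of 13018 genes had a response at least 1.5-fold higher in aged mice, or 25.6% relative to the median gene, and 8.60% had a lower one. In that comparison Smad7 and Ltbp2 were the members past 1.5-fold, Ltbp2 with -1.42 (-1.72 to -1.12). Relative to the median gene 6 members passed it, Smad7 higher in aged mice and Ltbp2, Tgfb2 (-1.02), Tgfb1 (-0.93), Tgfbr1 (-0.80) and Ltbp1 (-0.75) lower. The share of all genes that were lower relative to the median gene was not computed. The 8.60% belongs to the ratios of CPM and is no measure for these lower members.

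The median gene was also lower in young I/R. Relative to the median gene its log2 ratio was -0.36 (-0.47 to -0.26) in young mice, which is within 1.5-fold and above that of 30.5% of genes, and 1.04 (0.96 to 1.13) in aged mice, above that of 97.6% of genes. The direction at each age was the same with each scaling tried. In sham ventricles the log2 ratio of aged over young was -0.73 (-0.84 to -0.63), and after I/R it was 1.20 (1.12 to 1.29). The first was within 1.5-fold with median-of-ratios factors (-0.58), with TMM factors (-0.56) and in barcodes with at least 200 genes (-0.57).

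Smad3, the transducer, was among the least counted of the 9 genes. Its level was 7.39 CPM in young sham (191 UMIs), 4.79 CPM in young I/R (190 UMIs), 7.79 CPM in aged sham (322 UMIs) and 7.11 CPM in aged I/R (475 UMIs). As for Tgfb3, the young I/R library was low and the others were alike. The I/R-to-sham log2 ratio was -0.63 in young mice (-0.92 to -0.33) and -0.13 in aged mice (-0.34 to 0.08). Relative to the median gene the young value was -0.18 (-0.48 to 0.11).

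**Figure D2:**
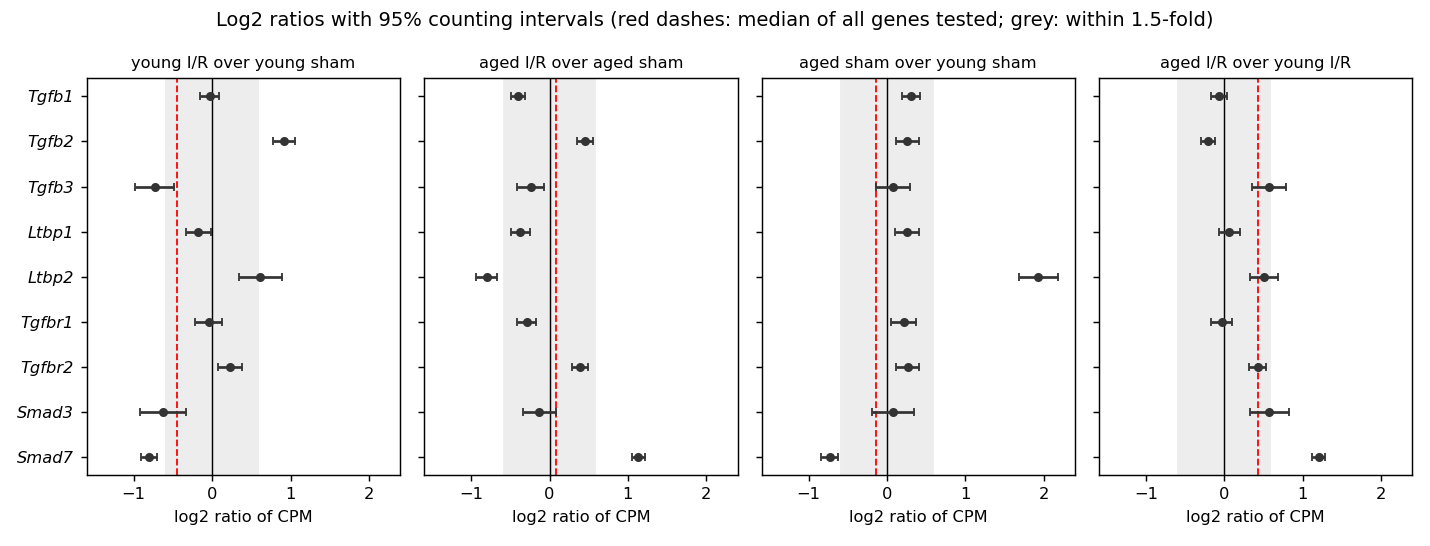
Log2 ratio of CPM for each gene in the 4 comparisons, with exact conditional 95% intervals for counting error; the red dashed line is the median of all genes tested, and grey marks ratios within 1.5-fold. Ltbp2 reached 1.93 in aged over young sham, and Smad7 lay at -0.80 in the young and 1.13 in the aged comparison of I/R with sham.

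Markers of cell types also differed between the libraries. The summed level of 18 fibroblast markers was 1704 CPM in young sham, 1355 CPM in young I/R, 2290 CPM in aged sham and 1747 CPM in aged I/R. The log2 ratio of this sum in aged over young sham, 0.43 with 11 of 18 markers higher, stands beside 1.93 for Ltbp2, and the I/R-to-sham values of -0.33 in young and -0.39 in aged mice beside 0.62 and -0.80. The 9 neutrophil markers summed to 17.6 and 27.9 CPM in young and aged sham and to 114 and 109 CPM in young and aged I/R. The 21 macrophage markers summed to 574, 409, 792 and 759 CPM in the young sham and I/R and then the aged sham and I/R libraries. Of these 21, 6 were higher after I/R in young mice. In aged mice 12 were higher after I/R, although their sum was lower. The 7 atrial markers summed to 476, 1316, 960 and 481 CPM in the same order. Of these 7, 5 were higher after I/R in young mice, 0 after I/R in aged mice and 4 in aged than in young sham. At least 1 marker of the neutrophil list and 1 of the atrial list was at 0 in a library, and none of the fibroblast and macrophage lists was. Fewer cells of a type and less RNA per cell cannot be told apart in such sums, and the part of cell composition in the results was not tested.

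The other genes of the pathway were taken from 7 lists with 81 genes. Of the 66 tested in young I/R over young sham 13 were at least 1.5-fold higher and 16 lower, against 5.35% and 41.9% of all genes. Relative to the median gene the counts were 17 and 5, against 17.6% and 21.0%. Of the 71 tested in aged I/R over aged sham 11 were higher and 7 lower, against 14.4% and 7.43%. Relative to the median gene they were 8 and 8, close to the shares of all genes (11.2% and 10.2%). In sham ventricles 13 of 68 were higher and 5 lower in aged than in young mice, against 6.12% and 16.9%. Relative to the median gene 19 were higher and 2 lower, against 9.88% and 10.8%. Between the I/R libraries 19 of 69 were higher and 8 lower in aged mice, against 39.3% and 3.29%. The balance turned relative to the median gene, with 6 higher and 14 lower, against 16.4% and 14.0%.

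The list with the highest median after I/R in young mice was that of genes known to be induced by TGF-β, which other signals induce as well. Of its 15 genes tested 8 were higher and 1 was lower after I/R in young mice, against 5.35% and 41.9% of all genes. Relative to the median gene the counts were 8 and 0, against 17.6% and 21.0%. The median log2 ratio was 0.78 beside -0.44 over all genes. In aged mice 6 were higher and 1 was lower, against 14.4% and 7.43%, with a median of 0.33 beside 0.09. Relative to the median gene 4 were higher and 1 was lower, against 11.2% and 10.2%. Timp1, an inhibitor of matrix metalloproteinases, stood at 3.41 CPM in young sham, 75.3 CPM in young I/R, 18.5 CPM in aged sham and 45.9 CPM in aged I/R. It was thus higher after I/R at both ages, with log2 ratios of 4.47 and 1.31. Cdkn1a, a cell cycle inhibitor, stood at 15.9, 112, 25.3 and 39.3 CPM in that order. It was lower in aged than in young I/R, with a log2 ratio of -1.51 (-1.58 to -1.44). Postn, a matrix protein of activated fibroblasts, differed from both, at 45.6, 33.7, 108 and 61.0 CPM, with its highest level in aged sham as for Ltbp2. In aged over young sham ventricles 6 of the 15 targets were higher and 1 was lower, against 6.12% and 16.9%, with a median of 0.43 beside -0.14. Relative to the median gene 7 were higher and 0 lower there, against 9.88% and 10.8%. Between the I/R libraries 3 were higher and 4 lower in aged mice, against 39.3% and 3.29%. Relative to the median gene these counts were 0 and 6, against 16.4% and 14.0%.

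Among 14 genes of latency and activation 1 was higher and 5 were lower in the young I/R library, against 5.35% and 41.9% of all genes. Relative to the median gene 2 were higher and 1 was lower, against 17.6% and 21.0%. Thbs1, thrombospondin 1, an activator of the latent complex, stood at 4.64 CPM in young sham, 33.9 CPM in young I/R, 12.2 CPM in aged sham and 22.3 CPM in aged I/R. Itgb6, the β chain of an integrin that releases TGF-β, was at 28.8, 3.60, 15.3 and 9.45 CPM, the reverse order. In aged mice Thbs1 was higher and 3 genes were lower, against 14.4% and 7.43% of all genes. The lowest were Ltbp4, a binding protein for latent TGF-β1, at 167 CPM in aged sham and 79.8 CPM in aged I/R, and Ltbp3 at 51.7 and 29.8 CPM. Their log2 ratios of -1.06 (-1.12 to -1.01) and -0.79 (-0.88 to -0.71) stand beside -0.80 for Ltbp2 and -0.37 for Ltbp1.

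The other receptors and SMAD proteins were counted by the same 1.5-fold rule after I/R. Of 9 receptors and co-receptors tested, 2 were lower in young I/R, beside 41.9% of all genes. These were Acvr2b and Acvr1 of the activin and bone morphogenetic protein branches. In aged I/R 0 of the 9 receptors passed in either direction, beside 14.4% of all genes higher and 7.43% lower. Of the other SMADs 2 of 5 were lower in young I/R, close to the 41.9% of all genes. They were Smad2 with a log2 ratio of -0.67 and Smad4 with -0.60. In aged I/R 0 of 6 SMADs passed, beside the same 14.4% and 7.43% of all genes. Of those 5 SMADs 0 were lower relative to the median gene, beside 21.0% of all genes. By that measure 1 receptor was higher and 1 lower in young I/R, beside 17.6% and 21.0%. Acvr1 was then within 1.5-fold at -0.23. Of the negative regulators 3 of 10 were lower in young I/R, again beside 41.9% of all genes. The lowest were the ubiquitin ligase Nedd4l at 32.4 CPM in young sham and 16.3 CPM in young I/R and the decoy receptor Bambi at 6.81 and 3.65 CPM. Of these 10 genes 0 were lower and 2 higher relative to the median gene, against 21.0% and 17.6%. Nedd4l was then at -0.55 and Bambi at -0.46. In aged I/R 2 of 11 were lower, beside 7.43% of all genes. Of the 11, 0 were higher, beside 14.4% of all genes, while Smad7 was at 1.13. A list of 11 genes is too short to set Smad7 apart on that count. Smad6, which was counted with the SMADs, was at -0.15 (-0.35 to 0.05) in aged I/R over aged sham.

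**Figure D3:**
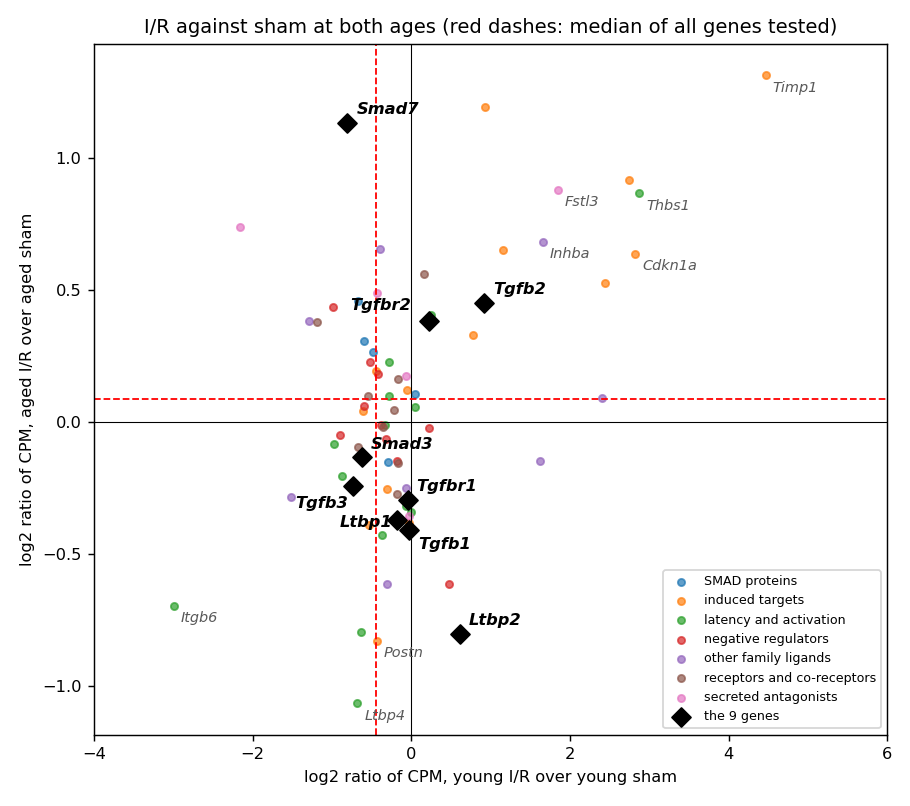
Log2 ratio of CPM of I/R over sham in young mice (x axis) and aged mice (y axis) for the 9 genes (black diamonds) and tested genes of the 7 wider lists (coloured points), with red dashed lines at the medians of all genes tested. Smad7 lies upper left and Ltbp2 lower right, while Tgfb2 lies upper right at 0.91 and 0.45, on the side of Timp1, Cdkn1a and Thbs1.

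The 9 genes were also read in classes of barcodes. The 241086 barcodes with at least 200 detected genes were clustered without these genes, and 7 of 12 clusters were named by their markers, as macrophage-like, endothelial-like, mural-like, fibroblast-like, atrial-like and, for 2 of them, erythroid-like. The labels also list cardiomyocytes, but no cluster was named cardiomyocyte-like, because cardiomyocyte markers summed to 85054 to 112405 CPM over the classes and libraries. They stood at 101698 CPM even in the erythroid-like class, beside 102784 CPM in the other barcodes. The fibroblast-like cluster had 13 of 18 markers at least 1.5-fold above the other barcodes but none among its 10 leading genes, and its 18 markers summed to 1.72-fold the level elsewhere. This naming rule, and the count of genes within 1.5-fold in every class, were chosen once the clusters were known.

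Between these classes the 9 genes differed little. Over 6 named classes and 9 genes the level in a class was 0.75 to 2.10 times that in all other clustered barcodes, and 41 of 54 intervals held the other barcodes' level. In 7 of the 9 genes every class was within 1.5-fold. Ltbp2 was at 26.3 CPM in the fibroblast-like class (24.0 to 28.8), 2.10-fold the other barcodes, and Smad3 at 10.1 CPM (8.69 to 11.7), 1.56-fold. Tgfb1 was highest in the macrophage-like class, at 41.7 CPM (38.2 to 45.4), which is 1.15-fold the other barcodes, with an interval that overlapped those of the other named classes. Between 0.39% (Smad3) and 3.25% (Smad7) of barcodes held a UMI of a gene, and 97.1% to 99.4% of those held exactly 1. The erythroid-like class, expected to hold little RNA of this pathway, had 55.9 CPM of Smad7 and 32.5 CPM of Tgfb2, 0.94 and 0.95 times the other barcodes, so that levels in a class cannot be read as expression by its cells.

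**Figure D4:**
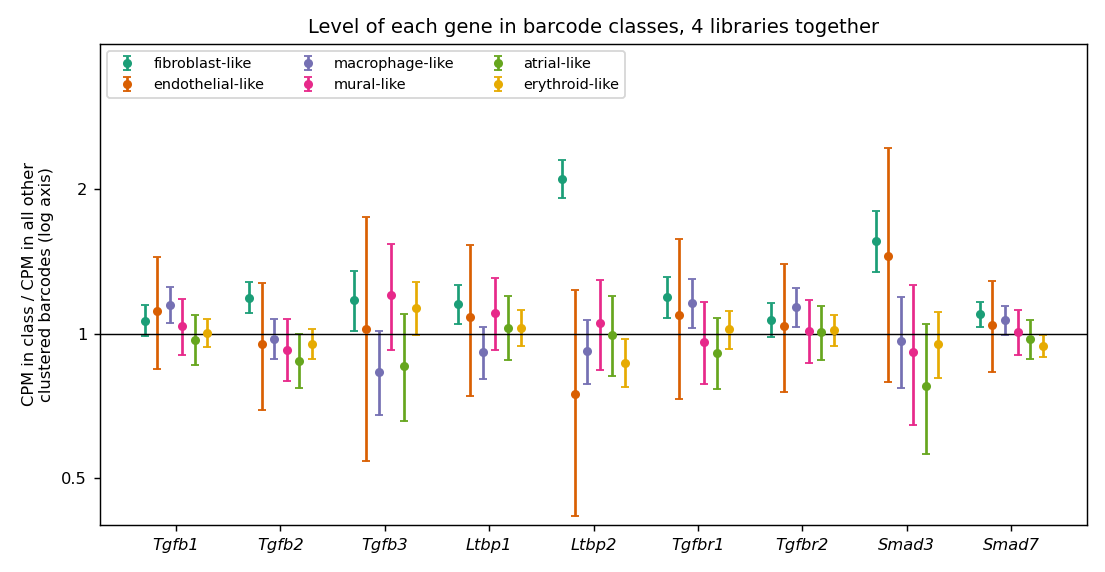
Level of each gene in 6 named barcode classes of the 4 libraries together, divided by its level in all other clustered barcodes (log axis, 1 marked by a line), with Poisson 95% intervals of the class level. Nearly all points lie close to 1, with Ltbp2 at 2.10 and Smad3 at 1.56 in the fibroblast-like class.

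The differences between libraries were then read within the classes. In the fibroblast-like class Ltbp2 was at 14.7 CPM in young sham, 17.5 CPM in young I/R, 44.9 CPM in aged sham and 21.6 CPM in aged I/R. The aged over young sham log2 ratio was 1.61 there (0.96 to 2.34) and 2.26 in the erythroid-like class (1.09 to 3.73), where young sham held 6 UMIs. The young I/R over sham ratio of Ltbp2 was 0.26 in the fibroblast-like class (-0.48 to 1.05) and -0.28 in the macrophage-like class (-1.48 to 1.04), intervals that hold 0, while it was 1.12 in the unnamed clusters (0.45 to 1.85), which held more UMIs than any class, and 1.09 in the erythroid-like class (-0.14 to 2.61). Smad7 was lower in young I/R and higher in aged I/R in the fibroblast-like class (-1.20 and 1.14), the macrophage-like class (-0.94 and 1.23) and the erythroid-like class (-0.79 in young mice, and 38.4 CPM in aged sham beside 77.1 CPM in aged I/R). For Tgfb2 the young and aged values were 0.89 and 0.47, 0.92 and 0.84, and 1.62 and 0.91 in the same classes. The directions of Smad7 and Tgfb2 were thus the same in these 3 classes. As the classes differed little in the levels of these genes, that sameness cannot show a difference within a cell type. In the mural-like class the young and aged values were -0.85 and 1.27 for Smad7 and 1.06 and 0.48 for Tgfb2, the same directions. The last had an interval that held 0 (-0.09 to 1.08). The atrial-like and endothelial-like classes differed from these, with wide intervals. In young mice Smad7 was at 0.24 (-0.52 to 1.08) in the atrial-like and 0.48 (-0.99 to 2.26) in the endothelial-like class. In aged mice Tgfb2 was at 0.03 (-0.48 to 0.57) and -0.90 (-2.05 to 0.23). The atrial-like class held more UMIs than the mural-like class, and its young Smad7 interval lay above the values of the 3 classes.

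**Figure D5:**
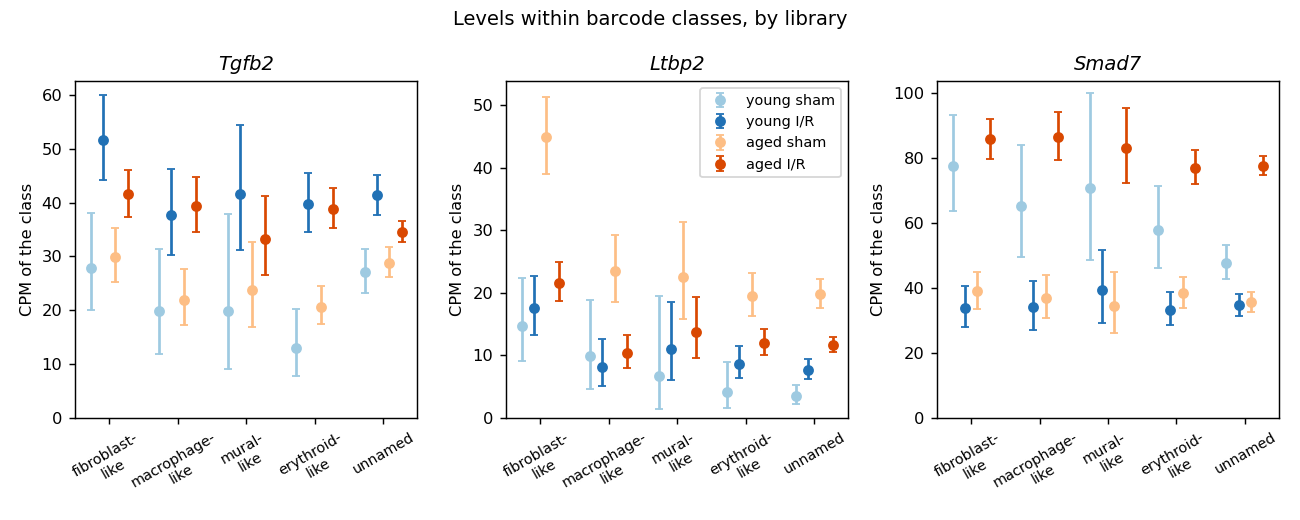
CPM of Tgfb2, Ltbp2 and Smad7 within 4 named classes and the unnamed clusters, by library, with Poisson 95% intervals; the endothelial-like and atrial-like classes are not drawn. Ltbp2 was highest in aged sham in each class drawn, reaching 44.9 CPM in the fibroblast-like class, and Smad7 was highest in aged I/R.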

How the data were processed

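The authors deposited, for each of 4 libraries, a matrix of UMI counts (raw counts per gene and barcode, not normalized) that, per the labels, was made with Cell Ranger 6.0.2 on mm10. Whether intronic reads or strand were used is not given in the sources used here. The deposited barcodes number 91124 to 102883 a library, and 28.4% to 98.8% of them have at least 200 detected genes. Free RNA and doublets were not removed, and no doublet caller was run.

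Counts were summed over all barcodes of a library and divided by its total (25836175 to 66767829 UMIs), giving CPM with exact Poisson 95% intervals and log2 ratios with exact conditional binomial intervals. Because UMIs come from 3′ ends and were not divided by length, levels were compared within a gene and not between genes. A gene with at least 100 UMIs over both libraries counted as called at 1.5-fold; all 9 genes reached that number. A count of 0 allows up to 3 UMIs, or 0.045 to 0.12 CPM.

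The members and lists were chosen with earlier results of these data known. Named genes were the 9 members and, from each wider list, the 2 highest and 2 lowest past 1.5-fold in a comparison. Timp1 and others so named in one comparison are given in all libraries. A gene of the wider lists enters the counts but is not reported here.

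For the classes, barcodes with at least 200 genes were clustered (scanpy 1.11.5, igraph 0.11.9; 2000 variable genes without the members, scaled within library, 10 components, 20 neighbours, Leiden resolution 1). A cluster was named when at least 3 markers of a list were 1.5-fold raised, more than of any other list. Alternatives were median-of-ratios factors, TMM factors (edgeR 4.0.16, scaling only), totals without Gm42418, Malat1 and mitochondrial genes, barcode filters, a fold of 2, other UMI minimums and Leiden resolutions 2 and 0.5. The ratios were tested on simulated data. Gene positions came from GENCODE M21. The position of Smad7 and the promoters of Tgfb3 and Smad7 are not used here.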

Additional observations from a re-analysis of the deposited data

Results flagged for a closer look

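For Smad7 and Ltbp2 the libraries moved in opposite directions with I/R at the 2 ages, each past 1.5-fold. The aged response minus the young response was 1.94 on the log2 scale for Smad7 (lower in young I/R, higher in aged I/R) and -1.42 for Ltbp2 (higher in young I/R, lower in aged I/R). The young value of Smad7 was within 1.5-fold relative to the median gene (-0.36), with median-of-ratios factors (-0.29) and with TMM factors (-0.34), and the interval of the young value of Ltbp2 (0.34 to 0.90) reached below 1.5-fold. With 1 library per condition the difference was not tested against variation between mice.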

How the results depend on the processing

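Of 225 log2 values of the 9 genes under alternative scalings and barcode sets, 21 changed sign, 0 of them among values past 1.5-fold, and 28 crossed that threshold. The number of genes past 1.5-fold in young I/R over young sham fell from 5 to 3 with median-of-ratios factors, 3 with TMM factors and 0 at a fold of 2. In aged I/R over aged sham it went from 2 to 1 at a fold of 2. In aged sham over young sham it went from 2 to 1 with median-of-ratios factors, TMM factors, barcodes with at least 200 genes or a fold of 2. Smad7 was the gene lost each time. In aged I/R over young I/R it went from 1 to 2 with median-of-ratios factors and to 3 with barcodes of at least 200 genes or barcodes found in 1 library. The number with responses differing by 1.5-fold between ages went from 2 to 6 with median-of-ratios factors, 6 with TMM factors (chosen after seeing the data) and 4 without the abundant genes. The share of all genes that passed under these scalings was not computed. The 7 genes within 1.5-fold in every class became 3 at Leiden resolution 0.5. The wider lists together had 92 values past 1.5-fold in either direction over the 4 comparisons, 80 with median-of-ratios factors and 114 at 20 UMIs, but their split into higher and lower moved relative to the median gene, as given above. The scalings moved every young I/R-to-sham log2 ratio by 0.51 (median-of-ratios), 0.46 (TMM) or 0.15 (without the abundant genes). The values relative to the median gene were also chosen after seeing the data. No paired analysis was possible because each condition has 1 library and the result comes from no test, and for the same reason no library could be left out.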

Other observations

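Other ligands of the TGF-β family and their secreted antagonists were measured in the same libraries. Inhba, the subunit of activin A, stood at 5.26 CPM in young sham, 16.6 CPM in young I/R, 7.13 CPM in aged sham and 11.5 CPM in aged I/R, and Fstl3, an antagonist of activin, at 5.11, 18.4, 6.24 and 11.5 CPM in the same order. Both were higher after I/R at both ages, as Tgfb2 was, and their log2 ratios were 1.66 and 1.85 in young mice and 0.68 and 0.88 in aged mice. Gdf15, a stress-induced ligand, stood at 1.08, 5.72, 2.76 and 2.94 CPM. Inha, the inhibin α subunit, ran the other way, at 16.1, 5.60, 10.2 and 8.37 CPM, as did Chrd, an antagonist of bone morphogenetic proteins, in young mice, at 5.50 CPM in sham and 1.24 CPM after I/R. In aged mice Chrd was higher after I/R, with a log2 ratio of 0.74 (0.35 to 1.14). Of the 12 other ligands 8 were tested after I/R in young mice, with 3 higher and 2 lower, against 5.35% and 41.9% of all genes. Relative to the median gene the counts were also 3 and 2, against 17.6% and 21.0%. In aged mice 10 were tested, with 2 higher and 1 lower, against 14.4% and 7.43%. Relative to the median gene 1 was higher and 2 were lower, against 11.2% and 10.2%.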
